A study of Mus musculus with 2 samples.

Results

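The 9 genes Spp1, Arg1, Gpnmb, Trem2, Fabp5, Cd9, Lgals3, Gdf15 and Apoe, associated with wound-healing and lipid-laden macrophages, were taken by name from the 56954 features of the gene expression matrix of 1 pooled mouse heart suspension. All 9 were found, each on 1 gene identifier; in the GENCODE vM21 annotation of mm10 they lie at chr5:104435118-104441050 (Spp1), chr10:24915221-24927484 (Arg1), chr6:49036546-49070929 (Gpnmb), chr17:48346401-48354147 (Trem2), chr3:10012548-10016607 (Fabp5), chr6:125460266-125494791 (Cd9), chr14:47367751-47386160 (Lgals3), chr8:70629393-70632456 (Gdf15) and chr7:19696109-19699188 (Apoe). They were read cell by cell in a myeloid gate, defined on the raw counts as at least 1 UMI of Csf1r or at least 5 UMIs of Lyz2, with Pdgfra at 0. A UMI, or unique molecular identifier, stands for 1 captured transcript. The gate held 2596 of the 9012 cells left after doublet removal (28.8%, 95% exact binomial interval 27.9 to 29.7%).

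The pool came from hearts collected 7 days after transverse aortic constriction (TAC), an operation that narrows the aortic arch so that the heart pumps against higher pressure, and held non-cardiomyocytes from 3 control and 4 Nts KO mice. Nts encodes neurotensin, and KO stands for knockout. The genotype entry gives an age of 6 to 8 weeks and WT, although the pool is described with KO mice, and the promoter or Cre line behind the KO is not given in the sources used here. Cells from each mouse carried a hashtag antibody and were sorted alive (stained by calcein-AM and not by DAPI) into 1 tube, but no cell could be tied to a mouse here, so control and KO hearts were not compared and there was no replicate. Intervals are 95% exact intervals and cover counting error between transcripts or cells only; no significance test was possible.

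Macrophages in an injured heart come from resident cells and from recruited monocytes, and take on different expression programmes. Arginase 1 (Arg1) breaks down arginine and is a marker of wound-type macrophages, while Spp1 encodes osteopontin, a secreted matrix glycoprotein that binds CD44 and integrins. Trem2 is a lipid-sensing receptor that signals through Tyrobp, and together with Gpnmb, a transmembrane glycoprotein of lysosomes and the cell surface, Fabp5, a fatty acid carrier, Cd9, a tetraspanin, Lgals3, the lectin galectin 3, and Apoe, a lipid carrier, it marks lipid-associated macrophages. Gdf15 is a secreted stress cytokine.

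The deposited matrix held 69993559 UMIs in 9369 barcodes, with 2567 to 42567 per barcode, and no barcode was listed more than once. Gate cells had a median of 5715 UMIs against 6962 outside. Shares of cells were therefore read from a random draw of 2500 UMIs per cell, except where they are said to be unthinned, and such values are called thinned. By its markers the gate was myeloid: the macrophage list summed to 18331 CPM (a gene's UMIs over all UMIs of the cells, on the usual scale) in the gate against 420.6 CPM outside, and the monocyte list to 1606 against 152.4 CPM, while the fibroblast list was at 2295 against 53380 CPM. Part of this was fixed in advance by the gate. The macrophage list holds Csf1r (668.6 against 14.73 CPM) and the fibroblast list Pdgfra (0 against 230.6 CPM). Other lists in the gate were at 1654 CPM for neutrophils, 506.1 for B cells, 241.7 for dendritic cells and 117.7 for T cells, and their part in the levels below was not tested. Of the gate cells, 1777 lay in clusters led by macrophage markers, 144 in clusters of mixed markers and 94 in clusters of other lineages. Both routes took 2251 cells, 153 came in by Csf1r alone and 192 by Lyz2 alone. The cut was close for 94 cells with exactly 1 Csf1r UMI and fewer than 5 of Lyz2, and the Pdgfra condition removed 262 cells, 61 of them in clusters led by macrophage markers.

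Most gate cells fell in 4 clusters, formed without the 9 genes. Cluster 5 (622 gate cells, macrophage-like) was led by Spp1, Cxcl2, Arg1 and Nlrp3, 2 of the 9 genes although neither had been used to form it. Cluster 6 (514 cells), led by Folr2, Ccl8, Cbr2 and F13a1, carried macrophage markers but kept no name. Cluster 8 (496 cells, macrophage-like) was led by Lilra5, Ccl12 and Ms4a7, and cluster 10 (340 cells, monocyte-like) by Chil3, Plac8 and Hp. Smaller ones were cluster 12 (143 cells, dendritic-like, led by Cd209a) and cluster 23 (98 cells, monocyte-like, led by Ear2). Others were cluster 24 (74 cells, led by immunoglobulin transcripts) and cluster 25 (71 cells, macrophage-like, led by cell cycle genes). Cluster 24 kept no name. With 9 of 10 macrophage markers detected, it is counted with clusters 5, 6, 8 and 25 as led by macrophage markers.

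Spp1 was 17.3-fold higher in the gate than in all other cells (16.05 to 18.59), at 301.1 CPM against 17.4 CPM. Arg1 was 21.3-fold higher (17.6 to 25.8), at 55.0 against 2.59 CPM. Trem2 was 37.1-fold higher (33.5 to 41.3), at 292 against 7.86 CPM, and 92.7% of its UMIs lay in the gate. Lgals3 was 19.9-fold (19.1 to 20.7), Gdf15 7.43-fold (7.09 to 7.80) and Apoe 4.12-fold (4.08 to 4.15) higher in the gate. The 3 other genes went the opposite way. Gpnmb was 1.47-fold higher outside (1.21 to 1.80), at 11.0 CPM against 7.52 CPM, Fabp5 2.20-fold (2.10 to 2.30) and Cd9 2.25-fold (2.19 to 2.30) higher outside. At a fold of at least 2, 6 of the 9 were thus higher and 2 lower, where 13.9% of the 18565 genes measured were higher in the gate and 31% lower.

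The genes differed in how few cells held their transcripts, as the plot of ranked cells shows. Of the 5008 Spp1 UMIs in the gate, 8 cells held 50.1%, and 1 cell alone held 981 (19.6%). For Arg1, 10 cells held 52.5% of 914 UMIs, and for Gpnmb 5 cells held 52% of 125 UMIs. Trem2, Cd9, Lgals3 and Apoe were spread widely, with 341, 254, 294 and 442 cells needed to hold the first 50% of their UMIs. Fabp5 (51 cells) and Gdf15 (79 cells) lay between. A level summed over the gate therefore describes a few cells for Spp1, Arg1 and Gpnmb. For Fabp5, 38 cells with 10 or more UMIs held 44.98% of the sum, and for Gdf15 190 such cells held 77.1%. After thinning, 12.3% of gate cells had an Spp1 UMI (11.1 to 13.6%), 2.27% Arg1 (1.73 to 2.92%), 1.04% Gpnmb, 41.9% Trem2 (40.0 to 43.8%), 15.02% Fabp5, 46.5% Cd9, 63.0% Lgals3, 18.9% Gdf15 and 88.6% Apoe; without thinning the shares ran from 1.54% (Gpnmb) to 93.6% (Apoe).

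**Figure D1:**
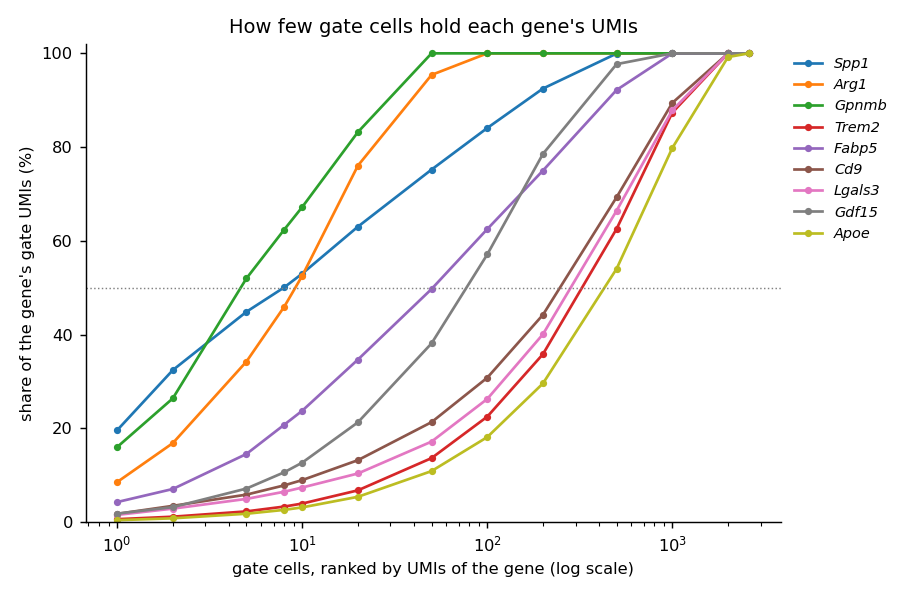
Share of each gene's UMIs in the 2596 gate cells (vertical axis, %) held by the cells with most of them (horizontal axis, number of cells on a log scale), with a dotted line at 50%. Spp1, Arg1 and Gpnmb passed the line within 10 cells, and Apoe only after 442.

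As a guide to free RNA, T cell-like cluster 15 outside the gate (183 cells, median depth 3168 UMIs) was read the same way. Which transcripts were its own was not tested. There Spp1 was found in 1.64% of thinned cells, Trem2 in 0.546%, Gdf15 in 1.64%, Lgals3 in 3.83% and Fabp5 in 7.10%, and Arg1 and Gpnmb in 0 of 183. Apoe was found in 37.2% of these T cells and Cd9 in 16.9%. Whether these were free RNA or the cells' own was not tested, so low shares of those 2 genes elsewhere are not read as expression.

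The unthinned counts of the cells richest in each gene are given one by one. The cell with 981 Spp1 UMIs had 0 Arg1, 13 Gpnmb, 12 Trem2, 60 Fabp5, 18 Cd9, 104 Lgals3 and 254 Apoe UMIs. The next, with 643 Spp1 UMIs, had 19 Arg1 and 133 Cd9 UMIs but 0 Gpnmb, 0 Trem2 and 0 Fabp5. Both lay in cluster 5, one without Arg1 and one without Trem2 or Gpnmb. Among the 8 cells richest in Spp1, 4 had an Arg1 UMI, 2 a Gpnmb UMI and 6 a Trem2 UMI. The 10 cells richest in Arg1 held 29 to 78 Arg1 UMIs each and all lay in cluster 5; 8 of them had an Spp1 UMI, 8 a Trem2 UMI and 1 a Gpnmb UMI, and their Trem2 counts were 0 to 6. Of the 5 cells richest in Gpnmb (7 to 20 UMIs), 0 had Arg1, while all 5 had Lgals3, from 16 to 230 UMIs.

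Whether the Arg1 and the Trem2/Gpnmb programmes shared cells was asked at 2 or more thinned UMIs of Arg1, and of Trem2 plus Gpnmb. Arg1 was carried by 35 gate cells (1.35%) and Trem2/Gpnmb by 521 (20.1%), of which 509 reached the threshold on Trem2 UMIs counted alone and 6 on Gpnmb UMIs counted alone. Both were carried by 9 cells (0.347%, 0.159 to 0.657%), Arg1 only by 26 and Trem2/Gpnmb only by 512. Among Arg1 cells 25.7% (12.5 to 43.3%) carried Trem2/Gpnmb, against 19.7% (18.2 to 21.4%) of the 2537 cells with no thinned Arg1 UMI, a ratio of 1.30. The intervals overlapped, so more or fewer shared cells could not be told apart at this depth. At 1 or more UMIs the shares were 61.0% (47.4 to 73.5%) against 41.9% (40.0 to 43.8%), with intervals apart, and at 3 or more UMIs 7.14% (0.877 to 23.5%) against 8.00% (6.98 to 9.13%), resting on 2 of 28 Arg1 cells, with overlapping intervals. Gpnmb itself was too rare to tell whether it shared cells with Arg1. At 1 or more UMIs of each, 2 of 59 Arg1 cells had Gpnmb (3.39%, 0.413 to 11.7%). Of Arg1-free cells 0.985% did (0.639 to 1.45%), with overlapping intervals. At 2 or more UMIs 0 of 35 did, which allows a share of up to 10% by the exact interval. Only 6 gate cells reached that threshold for Gpnmb, 0.237% of Arg1-free cells. Over the whole gate Trem2 and Gpnmb were not shown to share cells either. Trem2 was found in 15 of 27 cells with Gpnmb (55.6%, 35.3 to 74.5%) and in 41.7% of the rest (39.8 to 43.7%), with overlapping intervals (Pearson r 0.02). Inside the clusters led by macrophage markers the intervals were apart, on few cells. There Trem2 was found in 14 of 17 cells with Gpnmb (82.4%, 56.6 to 96.2%) and in 52.95% of the rest (50.6 to 55.3%, Pearson r 0.04). In cluster 5 alone, with 11 of 14 cells, they overlapped. Without thinning, 21 of the 512 Trem2/Gpnmb-only cells had a Gpnmb UMI, so that group stands mostly for Trem2.

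All 9 cells with both programmes and 20 of the 26 Arg1-only cells lay in cluster 5, with 4 more of the latter in monocyte-like cluster 10. The Trem2/Gpnmb-only cells were spread over cluster 5 (142), cluster 6 (155) and cluster 8 (149). Within cluster 5, Trem2/Gpnmb was carried by 31.03% of 29 Arg1 cells (15.3 to 50.8%) and by 23.5% of 583 Arg1-free cells (20.1 to 27.2%). In clusters 6 and 8 together 304 cells carried Trem2/Gpnmb and 0 carried Arg1 at this threshold.

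Cells with Arg1 were commoner among the few cells with 5 or more Spp1 UMIs, and cells of the Trem2/Gpnmb programme from 1 Spp1 UMI on. Here Arg1 and Gpnmb were counted at 1 or more thinned UMIs and Trem2/Gpnmb at 2 or more. In cells with 0 thinned Spp1 UMIs, 1.45% of 2277 cells had Arg1 (1.00 to 2.03%) and 18.1% carried Trem2/Gpnmb (16.6 to 19.8%). At 1 Spp1 UMI the shares were 3.57% (1.32 to 7.61%) and 29.8% (23.0 to 37.3%), and at 2 to 4 UMIs 2.91% (0.605 to 8.28%) and 32.04% (23.2 to 42.0%), so that the Arg1 intervals overlapped that at 0 and the Trem2/Gpnmb intervals did not. At 5 to 9 Spp1 UMIs each was found in 9 of 22 cells (40.9%, 20.7 to 63.7%). At 10 or more, Arg1 was found in 8 of 26 cells (30.8%, 14.3 to 51.8%), Trem2/Gpnmb in 16 (61.5%, 40.6 to 79.8%) and Gpnmb in 4 (15.4%, 4.36 to 34.9%). Cells with at least 5 Spp1 UMIs numbered only 48, and the bins from 5 on have overlapping intervals for every programme.

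**Figure D2:**
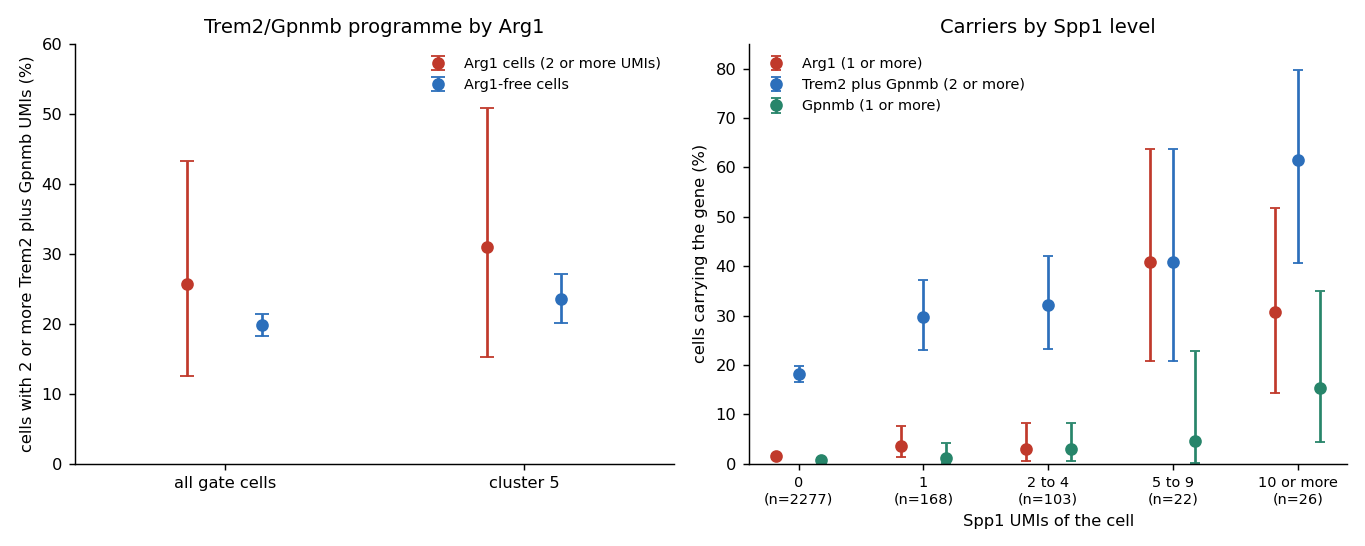
Left, share of cells (%) carrying 2 or more Trem2 plus Gpnmb UMIs among Arg1 cells (red) and Arg1-free cells (blue), in all gate cells and in cluster 5; right, share of gate cells (%) with Arg1 (1 or more UMIs), Trem2 plus Gpnmb (2 or more) and Gpnmb (1 or more) by the cell's Spp1 UMIs. Points are shares after thinning to 2500 UMIs and bars 95% exact binomial intervals; the red and blue bars on the left overlap, and on the right the shares at 5 or more Spp1 UMIs lie above those at 0.

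Over all 36 pairs of the 9 genes, 29 had a higher share of cells with the 1 gene among cells with the other than among cells without it. The share was lower for 7, and intervals were apart for 15 of the higher and 2 of the lower. Pairs of other genes in the gate were not counted, so these counts are not read as particular to the 9 genes. Correlations over the 2596 cells, which share 1 library and 1 depth after thinning, were weak (between -0.1 and 0.1 for 23 pairs). The 3 highest were Trem2 with Apoe (Pearson r 0.36), Spp1 with Arg1 (0.26) and Spp1 with Cd9 (0.24), and the lowest was Lgals3 with Apoe (-0.42). Apoe was found in 96.5% of cells with Trem2 (95.2 to 97.5%) and in 82.8% of the rest (80.8 to 84.7%), while Lgals3 was found in 57.1% of cells with Trem2 (54.1 to 60.1%) and in 67.3% of the rest (64.8 to 69.6%). Lgals3, often listed beside Trem2, was thus less frequent in Trem2 cells of the gate as a whole. Inside the clusters led by macrophage markers, where monocyte-like and dendritic-like cells are left out, the coefficients were 0.19 for Trem2 with Apoe, 0.01 for Trem2 with Lgals3 and -0.26 for Lgals3 with Apoe.

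Arg1 was found in 8.15% of 319 cells with Spp1 (5.39 to 11.7%) and in 1.45% of the rest (1.00 to 2.03%), and this pair was apart in cluster 5 as well, at 14.3% (8.82 to 21.4%) against 4.09% (2.52 to 6.25%). Gpnmb, found in 27 thinned cells, went with Fabp5 (51.9% of them, 31.95 to 71.33%, against 14.6% of cells without Gpnmb) and with Lgals3 (88.9%, 70.8 to 97.7%, against 62.7%). Gdf15 was found in 22.3% of cells with Trem2 (19.8 to 24.9%) against 16.5% (14.7 to 18.5%), and within macrophage-led clusters in 23.7% against 23.9%. The share of Gdf15 cells thus differed by Trem2 in the whole gate, and within those clusters the intervals overlapped.

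**Figure D3:**
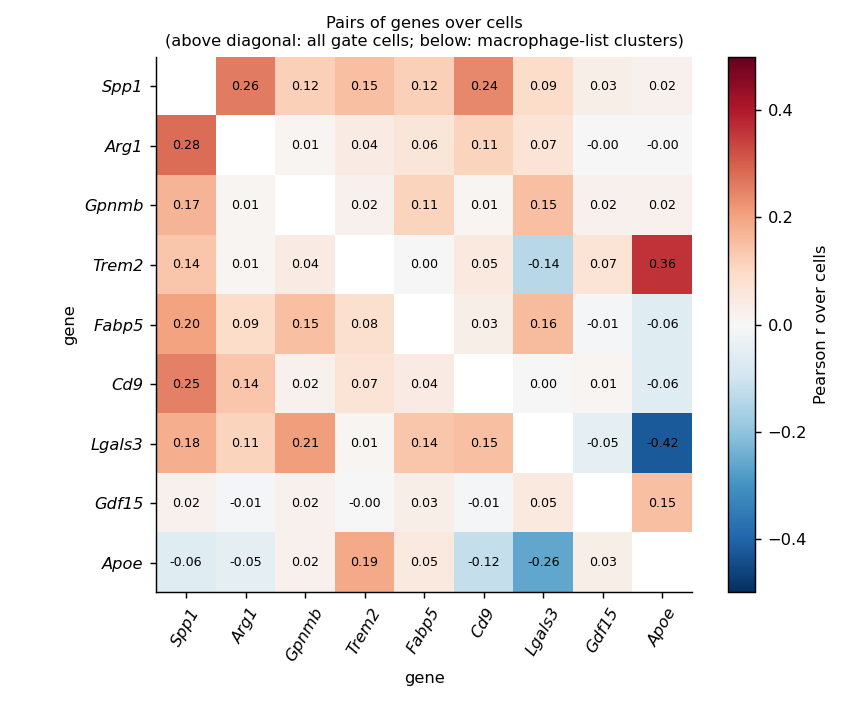
Pearson r of log-scaled thinned UMIs over cells for each pair of the 9 genes, above the diagonal over all 2596 gate cells and below it over the 1777 gate cells of clusters led by macrophage markers. Trem2 with Apoe is the deepest red square (0.36) and Lgals3 with Apoe the deepest blue (-0.42), and both are nearer to 0 below the diagonal.

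RefSeq's promoter table (build GRCm38.p6) held entries for 7 of the 9 genes; Arg1 and Fabp5 were not matched. The 250 bases before the annotated start are shown, 5′ to 3′ on the gene's strand, for Trem2 and Apoe, the pair that varied together most, and for Spp1 and Gpnmb, which were held by few cells. Capitals mark matches, on either strand, to GAGGAA (the core bound by the myeloid factor PU.1), TGANTCA (AP-1), CACGTG (E-box) and TCATGTG (a core of the MITF family). No match overlapped another.
Trem2, chr17:48346151-48346400, plus strand: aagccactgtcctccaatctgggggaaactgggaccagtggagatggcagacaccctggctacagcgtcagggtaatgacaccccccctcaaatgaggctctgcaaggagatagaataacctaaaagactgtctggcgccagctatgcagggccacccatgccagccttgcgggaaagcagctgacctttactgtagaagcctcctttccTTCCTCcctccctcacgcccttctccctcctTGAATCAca
Apoe, chr7:19699189-19699438, minus strand: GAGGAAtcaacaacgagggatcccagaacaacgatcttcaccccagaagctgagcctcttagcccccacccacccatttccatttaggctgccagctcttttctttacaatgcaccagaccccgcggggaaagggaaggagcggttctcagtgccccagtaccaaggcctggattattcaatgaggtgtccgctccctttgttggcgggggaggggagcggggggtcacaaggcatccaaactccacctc
Spp1, chr5:104434861-104435110, plus strand: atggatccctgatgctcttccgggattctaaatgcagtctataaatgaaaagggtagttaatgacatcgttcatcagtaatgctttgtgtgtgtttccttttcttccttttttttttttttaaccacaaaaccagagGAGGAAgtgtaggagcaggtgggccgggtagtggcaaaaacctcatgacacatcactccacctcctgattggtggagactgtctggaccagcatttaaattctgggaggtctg
Gpnmb, chr6:49036268-49036517, plus strand: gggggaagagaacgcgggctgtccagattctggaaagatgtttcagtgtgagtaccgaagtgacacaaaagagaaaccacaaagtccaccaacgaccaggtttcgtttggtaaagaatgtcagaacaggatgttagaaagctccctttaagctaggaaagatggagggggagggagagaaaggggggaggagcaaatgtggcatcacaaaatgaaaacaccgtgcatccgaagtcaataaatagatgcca
GAGGAA was matched once each in the windows of Trem2 (on the opposite strand, 40 to 35 bases before the start), Apoe (250 to 245 bases before) and Spp1 (113 to 108 bases before), and is held by 23.3% of all 32851 windows of this length. TGANTCA was matched in the Trem2 window (9 to 3 bases before the start) and is held by 6.75% of windows. CACGTG (6.02% of windows) and TCATGTG (3.25%) had no match in the 4 windows, and Gpnmb had no match to any of the 4 motifs.

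The genes most like each programme over gate cells were sought among the 7232 genes with at least 200 gate UMIs. For Arg1 these were Fn1 (r 0.51), Saa3 (0.43), Cxcl3 (0.40), Vegfa (0.40) and Thbs1 (0.36): fibronectin, an acute-phase protein, a neutrophil chemokine, an angiogenic growth factor and thrombospondin 1. Spp1 came 12th on that list (0.26) and Trem2 853rd (0.04). For Trem2 plus Gpnmb they were Apoe (0.36), C1qc (0.34), C1qb (0.34), Ctsb (0.33) and C1qa (0.32), that is the complement C1q chains and the lysosomal protease cathepsin B. Spp1 came 43rd (0.16) and Arg1 961st (0.04).

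Arg1-only and Trem2/Gpnmb-only cells were then set against each other over the whole table, using raw UMIs summed over the 26 and the 512 cells (median depths 6075 and 5692 UMIs). Because Arg1, Trem2 and Gpnmb chose the cells they were not counted. Unless said to be thinned, numbers of cells with a gene in this contrast are unthinned. Of 9161 genes measured (at least 20 UMIs over both sides), 807 (8.81%) were at least 2-fold higher in Arg1-only cells and 1409 (15.4%) at least 2-fold lower. The remaining 6 genes split. Spp1 was 7.33-fold higher in Arg1-only cells (6.82 to 7.87), at 5163 against 704.9 CPM, with 0 to 643 UMIs per cell, a median of 3.5 and 56.2% of the sum from 1 cell. Cd9 was 4.39-fold higher (3.95 to 4.87), present in 23 of 26 cells against 344 of 512. Lgals3 was 2.42-fold higher (2.20 to 2.65). Fabp5 was 1.09-fold, with an interval on both sides of 1 (0.785 to 1.49). Apoe was 2.92-fold lower in Arg1-only cells (2.76 to 3.09), at 5587 against 16316 CPM. Arg1-only cells were chosen with fewer than 2 thinned Trem2 plus Gpnmb UMIs, and Apoe varied with Trem2. In the 9 cells with both programmes Apoe stood at 17366 CPM (16254 to 18535), and in cells with neither at 8314 CPM. At 1 or more thinned UMIs, Apoe was found in 96.6% of Arg1 cells (88.3 to 99.6%) and in 88.4% of the rest (87.1 to 89.6%). Gdf15 was 2.15-fold lower (1.64 to 2.86), and 1 cell held 90.9% of its UMIs in Arg1-only cells.

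Wound and hypoxia genes were higher in Arg1-only cells. Of 19 measured genes of hypoxia, glycolysis and wound secretion, 17 were higher in Arg1-only cells and 0 lower (median log2 ratio 2.46, against -0.15 over all genes measured). The exceptions were Hmox1 (0.516-fold) and Mmp14 (1.33-fold). Fn1 was 29.1-fold higher (26.4 to 32.1) and was detected in 26 of 26 Arg1-only cells against 83 of 512. Tgm2, the crosslinking enzyme transglutaminase 2, was 24.3-fold higher (18.5 to 32.1), in 18 of 26 cells against 53 of 512. In the same list Thbs1 was 21.1-fold, Vegfa 19.6-fold and the glycolytic enzymes Ldha 3.95-fold and Pgk1 4.45-fold higher, and Hif1a, the hypoxia-inducible factor, counted with the transcription factors, was 5.45-fold higher (4.10 to 7.18). Bhlhe40, a repressor of the clock family, was 6.13-fold higher (4.51 to 8.23).

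Of 9 measured genes of arginine metabolism 6 were higher and 0 lower (median 1.53). The arginine transporter Slc7a2 was 18.99-fold higher (7.69 to 48.4), resting on 13 and 10 UMIs, and Slc7a1, another one, 7.87-fold (2.66 to 21.2), on 7 and 13. Ass1, which makes argininosuccinate, was 5.93-fold higher, Srm, spermidine synthase, 2.95-fold and Odc1, the polyamine enzyme ornithine decarboxylase, 2.52-fold. Arg2 was 3.53-fold higher, on 7 and 29 UMIs. Asl was 1.28-fold, Sms 1.83-fold and Oat 0.769-fold, none past 2-fold. Nos2, the inducible nitric oxide synthase that competes for arginine, had 4 UMIs in the whole gate.

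Of 10 inflammatory cytokine and chemokine genes 6 were higher and 1 lower (median 1.12). Il6 was 97.4-fold higher (52.8 to 196), in 12 of 26 cells against 11 of 512, and Ptgs2, the inducible cyclooxygenase, 10.6-fold higher (8.04 to 13.97). In Arg1-only cells 1 cell held 43.8% of the Il6 UMIs, and 1 cell 32.3% of the Ptgs2 UMIs. Ccl4 was 4.67-fold lower (3.67 to 6.04). Of 8 classical monocyte genes 6 were higher and 0 lower (median 1.67, and 0.53 with another thinning seed), among them Ly6c2 (5.51-fold, 3.25 to 9.03) and Plac8 (4.16-fold, 3.29 to 5.22). In Arg1-only cells 1 cell held 34.8% of the Ly6c2 UMIs, and 1 cell 45.9% of the Plac8 UMIs.

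Antigen presentation and residency genes lay on the other side. All 7 MHC class II genes were lower in Arg1-only cells (median -2.80), with H2-Eb1 11.7-fold (9.75 to 14.2) and H2-Aa 8.32-fold (7.20 to 9.66) lower. Of 10 resident macrophage genes 8 were lower and 0 higher (median -2.96), among them Cbr2, 23.0-fold lower (9.81 to 70.8), and Lyve1, 14.3-fold lower (4.88 to 69.7) from 3 UMIs in 1 cell. The transcription factor Maf was lower too (5.77-fold, 3.80 to 9.23).

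Lysosome and lipid genes differed less: of 18 measured, 5 were lower and 0 higher in Arg1-only cells (median -0.38). Cd63, a lysosomal tetraspanin, was 2.37-fold lower (1.85 to 3.08), and the elastase Mmp12 25.2-fold lower (4.49 to 998) from 1 UMI, although the shares of cells with it were close, 1 of 26 (3.85%) against 26 of 512 (5.08%). The lipid droplet coat protein Plin2 was 1.23-fold and the scavenger receptor Cd36 1.59-fold, both short of 2-fold and above 1. Of 8 integrated stress and p53 genes 1 was higher (Nupr1, 2.06-fold, 1.601 to 2.627) and 1 lower (Atf3, 2.71-fold, 2.29 to 3.21). Of 8 cell cycle genes 3 were lower and 0 higher, the 3 each from 1 UMI in Arg1-only cells (Ube2c 4.93-fold lower, 0.857 to 197, and Pclaf 3.22-fold lower, 0.550 to 130). For these calls a side with 0 UMIs was set at 3 counts. Birc5, at 0 UMIs against 72, was therefore not called, nor were Top2a, Cdk1 and Rrm2, also at 0. The count of 3 thus depends on that rule. Of 4 non-classical monocyte genes 0 were past 2-fold.

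Over all genes with at least 50 UMIs, the 5 furthest on the Arg1-only side were Serpinb2, Slpi, Prg4, Il6 and Saa3. Slpi, a secreted protease inhibitor, was 164-fold higher (132 to 206), in 15 of 26 cells against 27 of 512, with 45.8% of its UMIs in Arg1-only cells from 1 cell. Prg4, lubricin, was 122-fold higher (72.6 to 220), with 69.4% of its UMIs in 1 cell, and Saa3 64.7-fold (50.7 to 83.4), in 10 of 26 cells. Serpinb2 had 138 UMIs in 3 Arg1-only cells and 0 in the 512 Trem2/Gpnmb-only cells, and 1 cell held 69.6% of them. On the other side Fcrls was 151-fold lower (27.1 to 5966) from 1 UMI, found in 391 of 512 Trem2/Gpnmb-only cells, the lectin Mgl2 80.0-fold (14.3 to 3161) from 1 UMI, and H2-Ea 61.1-fold lower (23.9 to 225). Retnla had 0 UMIs in the 26 Arg1-only cells and 496 in 15 of 512 Trem2/Gpnmb-only cells (2.93%), so few cells set its place. Gpr34 had 0 UMIs against 366 in 195 of 512 cells (38.1%).

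Cell make-up moved with this contrast, since the Trem2/Gpnmb-only cells were drawn from several clusters. Within cluster 5 alone (20 against 142 cells, chosen after the data had been seen), 12.3% of 5478 genes were at least 2-fold higher and 15.5% lower. There the hypoxia and wound list had 15 higher and 2 lower of 19 (median 1.96), and MHC class II 0 higher and 6 lower of 7 (-4.76). Resident macrophage genes had 0 higher and 4 lower of 8 (-1.09), the lysosome list 1 higher and 6 lower of 18, arginine metabolism 3 higher of 6 (0.61), and the inflammatory list 4 higher and 2 lower of 10 (0.07). The classical monocyte list turned, with 2 higher and 3 lower of 5 (-1.65). Spp1 was 3.31-fold (3.05 to 3.58) and Cd9 4.87-fold (4.28 to 5.54) higher in Arg1-only cells of cluster 5, while Apoe was 2.65-fold (2.48 to 2.83) and Gdf15 2.11-fold (1.61 to 2.83) lower. Lgals3, higher over the whole gate, was 0.773-fold there (0.670 to 0.888) and Fabp5 0.612-fold (0.412 to 0.882).

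Of the osteopontin receptors, Cd44 was 7.61-fold higher in the gate (7.14 to 8.11), at 207.7 CPM, and Itga4 5.46-fold higher (5.03 to 5.93), whereas Itgav, Itgb1, Itgb5 and Itga5 were 1.76-fold, 1.85-fold, 1.91-fold and 1.58-fold higher outside, Itgb3 5.04-fold (3.41 to 7.75) and Itga9 1.19-fold. Between the 2 kinds of gate cell, Cd44 was 4.00-fold (3.27 to 4.87) and Itgb1 2.15-fold (1.77 to 2.59) higher in Arg1-only cells. Itga9 was 2.46-fold lower in them, on 3 UMIs (0.821 to 12.1), Itgav was 1.42-fold, Itga5 1.86-fold, Itga4 0.799-fold and Itgb5 0.629-fold, and Itgb3 had 1 UMI over both.

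Among apolipoprotein E receptors, Sorl1 (3.09-fold, 2.74 to 3.49) and Lrp8 (2.13-fold, 1.35 to 3.31) were higher in the gate, and Lrp1 (4.05-fold, 3.87 to 4.24) and Vldlr (20.4-fold, 12.8 to 34.5) higher outside. Between the kinds of gate cell, Lrp1 was 1.70-fold in Arg1-only over Trem2/Gpnmb-only cells and Sorl1 4.25-fold lower on 1 UMI (0.734 to 170); Lrp8 had 9 and Vldlr 2 UMIs over both kinds of cell. Gfral, the receptor of Gdf15, had 0 UMIs in the gate and 0 outside, which allows up to 0.222 and 0.0757 CPM by the exact intervals. Its co-receptor Ret was 17.7-fold higher outside (11.8 to 27.6), highest in fibroblast-like cluster 3 at 77.1 CPM.

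Of the Trem2 signalling and shedding list, the adaptor Tyrobp was 19.9-fold higher in the gate (19.4 to 20.4) at 3035 CPM, and Plcg2, Inpp5d and Syk were 11.4-fold, 9.53-fold and 6.35-fold higher, with Trem1 at 8.65-fold and Hcst at 2.00-fold. The shedding proteases Adam10 and Adam17 were 1.07-fold and 1.27-fold. Between Arg1-only and Trem2/Gpnmb-only cells 2 of 8 were higher in Arg1-only cells and 0 lower: Trem1, a receptor that uses the same adaptor, 13.4-fold (8.09 to 22.1), in 17 of 26 cells against 23 of 512, and Adam10 2.89-fold (2.01 to 4.08). Tyrobp itself was 0.881-fold.

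Across the gate's clusters each gene had its own order. By summed UMIs, Spp1 was highest in cluster 5 at 889.4 CPM (860.1 to 919.3), where 2 cells held 981 and 643 UMIs. It was followed by cluster 17 (286.5, a mixed cluster led by neutrophil genes) and cycling cluster 25 (212.8), whose intervals do not meet cluster 5's. After thinning, Spp1 was found in 133 of 622 cells of cluster 5 and in 20 of 71 of cluster 25. The order of CPM thus did not hold for shares of cells. Arg1 was highest in cluster 5 at 195.7 CPM (182.1 to 210.0), then cluster 10 (39.6), and was 1.52 CPM in cluster 8 and 0 in clusters 22, 23 and 25. Gpnmb was highest in cluster 5 (22.1 CPM, 17.7 to 27.3), then cluster 10 (11.2, 7.16 to 16.6). After thinning it was found in 14 of 622 and 8 of 340 of their cells, which are close shares. Trem2 ran from 441.4 CPM in cluster 6 and 411.2 in cluster 8, whose intervals overlap, and 365.0 in cluster 5, down to 37.2 in dendritic-like cluster 12. Apoe followed a like order at the top, with 15945 CPM in cluster 6, 15625 in cluster 8 and 10661 in cluster 5, and 877 CPM in cluster 12. Lgals3 was the other way about, highest in monocyte-like cluster 10 (2528 CPM, 2461 to 2596) and dendritic-like cluster 12 (1687), at 441.7 in cluster 6 and 432.4 in cluster 8. Gdf15 was highest in cluster 5 (635.4 CPM), then cluster 6 (496.9). Fabp5 was highest in cluster 10 (229.9 CPM), and Cd9 in cluster 17 (743.2), whose interval met that of cluster 23 (627.1), with cluster 8 (592.4), cluster 25 (585.5) and cluster 5 (569.9) next, these 4 with overlapping intervals.

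**Figure D4:**
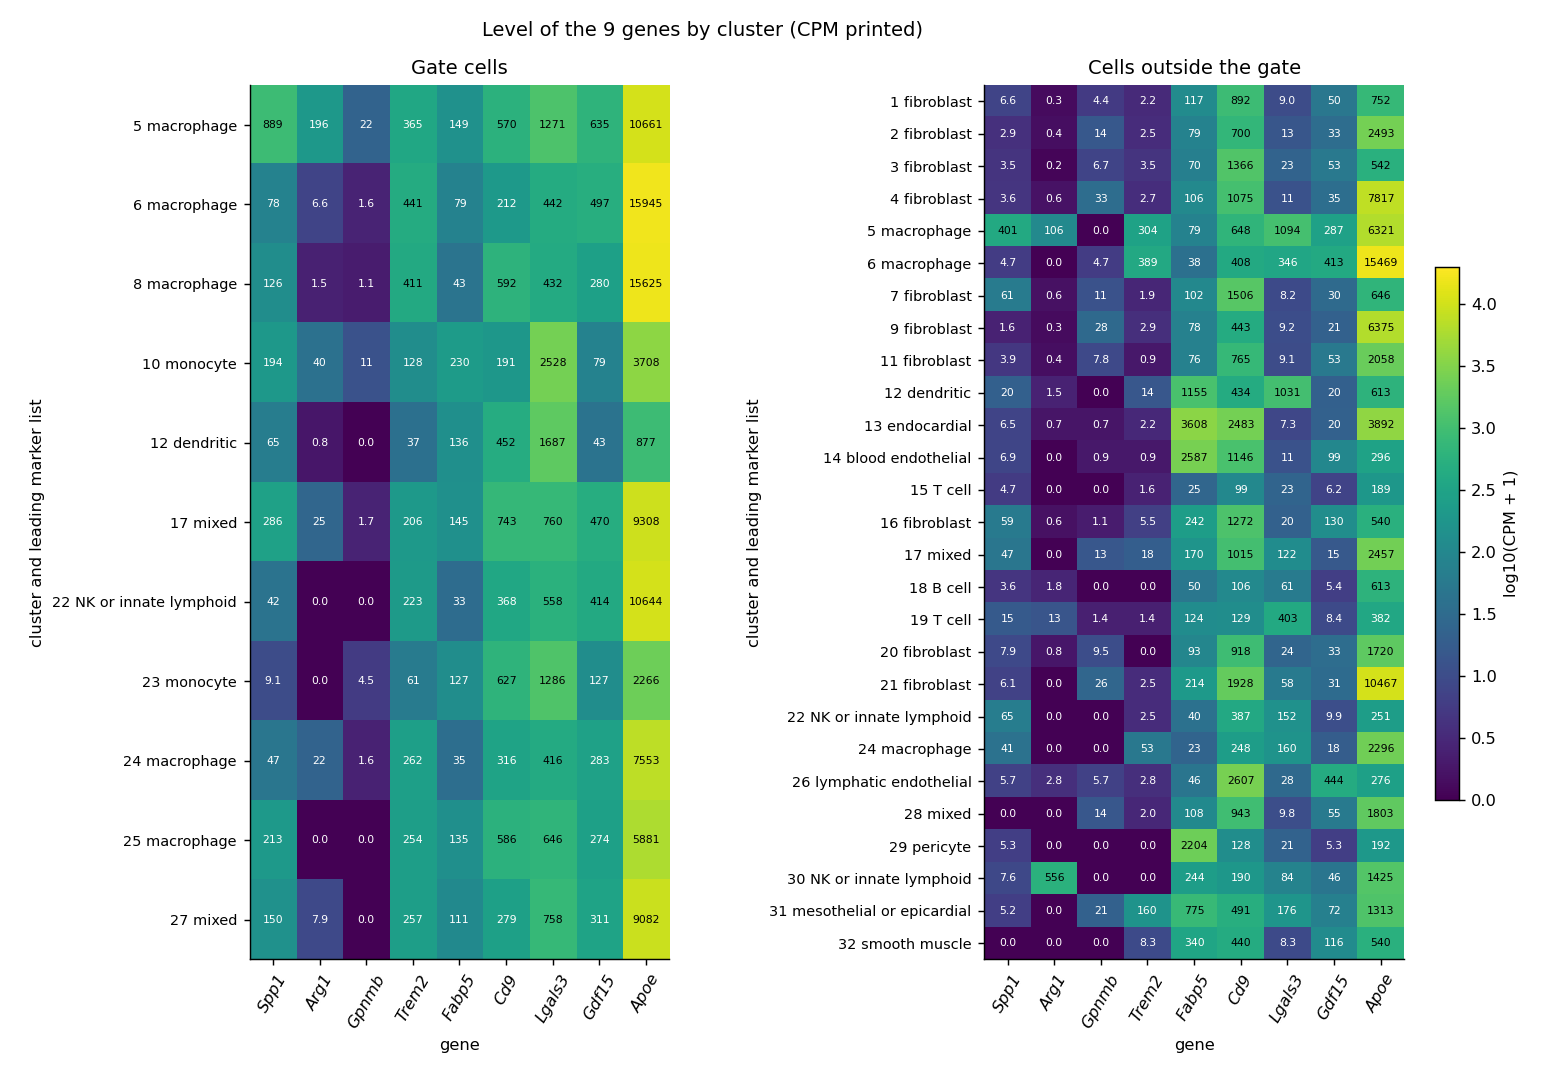
Level of each gene (columns) in each cluster of at least 20 cells (rows, with the marker list that led it), in gate cells (left) and in cells outside the gate (right); colour is log10 of CPM plus 1, and CPM is printed in each square. On the left Trem2 peaks in clusters 6 and 8 and Lgals3 in clusters 10 and 12, but Lgals3 is at 416.4 CPM or more in every row. On the right Fabp5 is bright in endocardial-like, blood endothelial-like and pericyte-like cells and Arg1 in cluster 30.

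Outside the gate, Arg1 had its highest level of any cluster in cluster 30, 34 cells with innate lymphoid markers (Gata3, Il5, Csf2, Areg). It stood at 556.4 CPM there (436.1 to 699.6) and was found in 17 of 34 thinned cells (50%, 32.4 to 67.6%), with 21 cells holding 73 of the 126 Arg1 UMIs found outside the gate and at most 12 in 1 cell. In these cells Spp1 had 1 UMI, Trem2 0 and Gpnmb 0. Gata3, a type 2 lymphoid factor, was found after thinning in 91.2% of them and Il1rl1, the interleukin 33 receptor, in 76.5%, while the myeloid adaptor Tyrobp was found in 1 cell, the T cell gene Cd3e in 1 and the NK gene Ncr1 in 0. C1qa, a macrophage gene found in 10.4% of T cell-like cluster 15, was found in 20.6% (8.70 to 37.9%). At a coarser clustering these cells joined a T cell class with 54.1 CPM of Arg1. T cell-like cluster 19 had 9 Arg1 UMIs, 6 of them in 1 cell.

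Gpnmb outside the gate was found mainly in fibroblast-like clusters, which held 509 of its 537 UMIs there and also most of the cells outside the gate. It was highest in fibroblast-like cluster 4 (33.3 CPM, 28.3 to 38.9), cluster 9 (28.0, 22.4 to 34.5) and cluster 21 (25.7, 15.9 to 39.3), whose intervals overlap, and at 1.11 CPM in cycling cluster 16. It was spread over cells there, 125 of 704 unthinned cells of cluster 4 having a UMI and at most 7 in 1 cell. Trem2 stood at 2.72 CPM in cluster 4. Apoe was high in the same 3 clusters, at 7817, 6375 and 10467 CPM, against a median of 1889 CPM over the 10 fibroblast-like clusters and 539.6 in cluster 16, and 98.6% of thinned cluster 4 cells had it.

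Spp1 outside the gate was highest among fibroblast-like cells in cluster 7, led by Thbs4 and Cthrc1, at 61.0 CPM (54.5 to 68.1), and in cycling cluster 16, at 58.7 (48.0 to 70.9), against a median of 5.02 over the fibroblast-like clusters. In cluster 7 it was found in 63 of 527 unthinned cells, and 5 cells held 52.0% of its 321 UMIs. NK-like cluster 22 reached 64.6 CPM on 26 UMIs, 13 of them in 1 cell.

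Trem2 was found outside the macrophage clusters in mesothelial-like cluster 31, at 160.2 CPM (108.9 to 227.4). There 12 of 22 unthinned cells held 31 UMIs, 14 of them in 1 cell. These 12 cells had 2 C1qa UMIs in all, and 11 had the mesothelial gene Msln. The 8 cells of the cluster that fell in the gate had 0 Trem2 UMIs, and 2 of them held 126 C1qa UMIs. Lgals3 was higher in T cell-like cluster 19 (402.7 CPM, 357.6 to 452.0, in 44.4% of thinned cells) than, at 23.3 CPM and 3.83%, in T cell-like cluster 15.

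Fabp5 was highest in endothelial and mural cells. It reached 3608 CPM in endocardial-like cluster 13 (3508 to 3710), 2587 in blood endothelial-like cluster 14 (2496 to 2681) and 2204 in pericyte-like cluster 29 (1996 to 2426), where 86.7%, 82.8% and 84.2% of thinned cells had it, beside 45.5 CPM in lymphatic endothelial-like cluster 26. In the 89 dendritic-like cells outside the gate it stood at 1155 CPM, but 7 cells held 95.5% of its 748 UMIs. Split by Ccr7, the receptor of migrating dendritic cells, 21 cells with Ccr7 held 721 UMIs (3810 CPM, 3537 to 4098) and 68 cells without it 27 (58.9 CPM, 38.8 to 85.7). After thinning 8 of the 21 had it (38.1%, 18.1 to 61.6%) and 11 of the 68 (16.2%, 8.36 to 27.1%), with overlapping intervals, so the level rests on few cells. This split was chosen after the values had been seen.

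Cd9 was highest in lymphatic endothelial-like cluster 26 (2607 CPM, 2441 to 2782) and endocardial-like cluster 13 (2483, 2400 to 2568), with overlapping intervals, followed by fibroblast-like cluster 21 (1928). Gdf15 outside macrophages was highest in the same lymphatic cluster, at 444 CPM (377.1 to 519.4), found in 14 of 67 thinned cells (20.9%, 11.9 to 32.6%), and 3 cells held 50% or more of its 156 UMIs. C1qa stood at 79.7 CPM in those lymphatic cells beside 52.8 CPM in T cell-like cluster 15, and its part in the Gdf15 level was not tested. Gdf15 was 98.6 CPM in blood endothelial-like and 20.4 CPM in endocardial-like cells.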

How the data were processed

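The authors deposited 1 matrix of whole-number UMI counts, without normalization, with STARsolo, Scanpy and mm10 named in the submitters' processing notes; cell calling is not given in the sources used here, and the hashtag library was not analysed here. Scrublet in scanpy 1.11.5 (Python 3.11.15) called 357 doublets, which were removed. Clusters used 2000 variable genes, with the 9 genes, context list genes (markers kept) and mitochondrial and ribosomal genes set aside, 30 components, 15 neighbours and Leiden resolution 1, and were named "-like" from 20 marker lists. The naming thresholds were taken over from earlier work on these data. CPM came from raw UMIs summed over cells, with exact Poisson intervals; ratios have exact intervals from the binomial distribution of both sums, computed with scipy 1.17.1. Carriers were called after thinning to 2500 UMIs, which no cell fell below. Genes needed 20 UMIs over both sides, and 2-fold was a description, not a test. The ratio, interval and thinning steps were tested on simulated data. Named genes were the 9 genes, up to 2 per side and list with the largest ratio past 2-fold, the 5 furthest per side with at least 50 UMIs, the 5 most alike, and receptor, Trem2 signalling and arginine list members; others named were chosen after their values were seen. The 9 genes and 15 context lists were chosen with earlier results of these data known. Ddit3 and Nrg1, each on 2 identifiers, were left out. Alternatives were the gate's routes, doublets, thinning, thresholds, filters, weighting, cell subsets and clustering. Promoter sequences came from RefSeq, GRCm38.p6, and gene positions from GENCODE vM21 (GRCm38, the build also called mm10). Some members of the context lists are not reported here.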

Additional observations from a re-analysis of the deposited data

How the results depend on the processing

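The ratio of Trem2/Gpnmb shares between Arg1 and Arg1-free cells (1.30) rests on 35 Arg1 cells. It was 2.46 (1.13 to 4.25) when cells were thinned to 1500 UMIs, where the intervals of the shares were apart, 25.8% (11.9 to 44.6%) against 10.51% (9.34 to 11.8%), and 0.893 (0.110 to 2.94) at 3 or more UMIs, resting on 2 of 28 cells. It was 0 for Gpnmb alone at 2 or more UMIs and 3.44 for Gpnmb alone at 1 or more. The share of gate cells carrying both (0.347%) was 1.39% at 1 or more UMIs and also for Trem2 alone at that threshold, 0.0770% at 3 or more UMIs and for Gpnmb alone at 1 or more UMIs, 0 for Gpnmb alone at 2 or more, and 1.45% in cluster 5 only. These follow from the threshold, the gene or the cells chosen. The count of genes at least 2-fold apart (2216) was 3544 with no filter on low counts, which tests more genes, and 1523 to 3544 over the 15 settings. The median log2 ratio of the classical monocyte list (1.67) was -1.65 in cluster 5 only, 0.53 with another thinning seed and 0.89 at 1 or more UMIs; the cause was not tested. The gate held 2404 to 2662 cells, and 23 to 31 of 36 pairs had a higher conditional share. The hypoxia and wound list kept a median of 1.96 to 3.07, MHC class II -4.76 to -2.38 and resident macrophage genes -3.03 to -1.09 in every setting run. The median over the other 6 genes (0.70) ran from -0.54 to 0.94. Cluster 5 and the 1 UMI thresholds for Gpnmb and Trem2 alone were chosen after seeing the data. No paired analysis was possible because the gene expression library is 1 sample without replicate.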
